A study of Rattus norvegicus with 6 samples.

Results

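Histone genes were examined in RNA-seq data from crushed and intact sciatic nerves of rats. The members were every row of the deposited table whose gene name starts with Hist1h, Hist2h, Hist3h, Hist4h, H2af or H3f3, or is H1f0 or H1fx, and 50 of the 30957 rows met this rule. Of these, 40 rows carrying 30 names were replication-dependent histones (names starting with Hist) and 10 rows carrying 9 names were replacement histones. No row was named H1f0, and none started with Hist4h. A read was counted on 47 of the 50 rows in at least 1 nerve, and 44 rows (37 replication-dependent and 7 replacement) passed edgeR's filter on low counts and were tested.

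The series held 6 sciatic nerves of Sprague-Dawley rats, 3 crushed nerves (labelled as injured tissue) and 3 intact nerves (labelled as normal tissue) that came from the uninjured opposite side. The methods describe adult male rats, a cut of the proximal stump taken at 4 days postinjury (dpi), depletion of rRNA, and treatment with RNase R, which digests linear RNA. The labels give no time point and no RNase R, and they do not tie a crushed nerve to the intact nerve of the same rat. The design text places the lesion on the right, and the methods mention a right-sided incision but a left crushed nerve. The labels call the 3 nerves of a group biological replicates. Nerves had total counts of 24844371 to 27139360, so a floor of 3 counts per library, below which a level was not told from 0, corresponded to between 0.110 and 0.121 CPM (counts scaled to library size), a limit that covers counting error only.

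The labelled tissue was checked against its defining markers. Among 12 Schwann cell and myelin genes, Mag had no count, and Mbp, Sox10 and S100b had between 0 and 3 counts per nerve. The summed level of the 12 genes was between 114 and 116 CPM in intact nerves and between 114 and 119 CPM in crushed nerves. Of 9 macrophage and leukocyte genes, Adgre1, Cx3cr1 and Ptprc had no count, and the summed level was between 3.94 and 5.57 CPM in intact nerves and between 4.21 and 6.001 CPM in crushed nerves. The 7 fibroblast genes, of which Dcn, Col1a2 and Lum had no count, summed to between 186 and 199 CPM in intact nerves and between 163 and 182 CPM in crushed nerves. The 4 endothelial genes found in the table summed to between 1.13 and 1.90 CPM in intact nerves and between 1.88 and 2.47 CPM in crushed nerves. Mki67, a protein of dividing cells, had between 37037 and 43837 counts per nerve. Several defining markers of Schwann cells and macrophages were thus absent or near 0 in samples labelled as sciatic nerve, and the samples are called nerves here as labelled. At an adjusted p under 0.05 (edgeR), 2 of the 4 tested fibroblast genes were lower in crushed nerves (Col1a1, log2 fold change -0.69, and Col3a1, -1.76, which also met the study threshold given below), with a median of -0.46. Of the 6 tested Schwann cell and myelin genes, Erbb3 was lower (-0.59), 3 had an unadjusted p under 0.05, and the median was -0.19.

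Histones are the proteins around which DNA is wound. The core histones H2A, H2B, H3 and H4 form the nucleosome, and the linker histone H1 binds the DNA between nucleosomes. Most histone protein is made in S phase from replication-dependent genes, which lie in clusters, lack introns and give mRNAs that end in a stem-loop in place of a poly(A) tail. The stem-loop-binding protein Slbp and the U7 particle, which holds Lsm10 and Lsm11, process that end, and Npat switches on the clusters. Replacement histones such as the H2A.Z variant (H2afz), the DNA damage variant H2A.X (H2afx), macroH2A (H2afy) and the H3 variant encoded by H3f3a and H3f3b are made throughout the cell cycle, and most of their mRNAs carry a poly(A) tail.

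Promoter windows show a feature that the name rule did not use. A RefSeq promoter in the GRCr8 assembly (250 bases before to 50 bases after the start) was matched to 26 members, 18 replication-dependent and 8 replacement. The rows whose names are shared, which include both genes called below, were not matched. Some rows with a name of their own, such as Hist1h3f, were not matched either. The replication-dependent windows belonged to 3 H1, 7 H2A, 7 H2B and 1 H4 genes, and no H3 row was matched. Each of 4 motifs was searched on both strands, and the only overlap is of TATAAA with its own reverse complement, as in Hist2h2ac. CCAAT was present in 16 of the 18 replication-dependent windows and in 5 of the 8 replacement windows, and 37.5% of all 33469 promoter windows of the same length hold it. TATAAA was present in 12 and 2 windows, against 14.2% of all promoters. The octamer ATTTGCAT was present in 8 and 0 windows, against 1.78%, and AAACACA, a motif of H1 promoters, in 4 and 0, against 6.99%. Of the 8 windows with the octamer, 4 belonged to H2A genes and 4 to H2B genes. The H4 window held none of the 4 motifs. The windows of Hist1h2aa and Hist1h2ba overlap each other, so these genes share sequence, and 4 windows begin their gene at the ATG of the coding sequence. A match is a description of letters and not of binding. The 250 bases before the start are printed for 4 genes, on the strand of the gene, with every match to the 4 motifs, or to their reverse complements, in capitals. Hist1h1b (H1f5 in RefSeq, chr17:47421625-47421874, plus strand) is the H1 gene with the most counts, Hist1h2bk (H2bc12, chr17:47181941-47182190, minus strand) is among the 6 highest replication-dependent genes by level, Hist2h2ac (H2ac20, chr2:186469227-186469476, minus strand) had the largest negative fold change among matched genes, and H2afz (H2az1, chr2:229028845-229029094, plus strand) is the replacement gene with the largest positive fold change.
Hist1h1b: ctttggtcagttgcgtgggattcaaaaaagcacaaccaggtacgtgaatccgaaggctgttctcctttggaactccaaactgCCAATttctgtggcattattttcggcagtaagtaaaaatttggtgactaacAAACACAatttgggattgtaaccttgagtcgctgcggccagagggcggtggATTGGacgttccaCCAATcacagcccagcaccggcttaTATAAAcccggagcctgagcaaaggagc
Hist1h2bk: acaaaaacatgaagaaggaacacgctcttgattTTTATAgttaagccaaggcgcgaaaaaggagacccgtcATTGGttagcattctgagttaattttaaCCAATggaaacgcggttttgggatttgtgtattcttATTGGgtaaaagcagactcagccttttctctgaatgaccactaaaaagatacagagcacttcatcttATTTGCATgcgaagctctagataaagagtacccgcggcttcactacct
Hist2h2ac: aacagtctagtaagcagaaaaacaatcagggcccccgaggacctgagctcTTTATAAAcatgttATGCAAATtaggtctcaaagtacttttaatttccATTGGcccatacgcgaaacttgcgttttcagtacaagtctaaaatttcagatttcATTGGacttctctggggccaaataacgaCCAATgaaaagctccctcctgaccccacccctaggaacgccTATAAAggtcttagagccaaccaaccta
H2afz: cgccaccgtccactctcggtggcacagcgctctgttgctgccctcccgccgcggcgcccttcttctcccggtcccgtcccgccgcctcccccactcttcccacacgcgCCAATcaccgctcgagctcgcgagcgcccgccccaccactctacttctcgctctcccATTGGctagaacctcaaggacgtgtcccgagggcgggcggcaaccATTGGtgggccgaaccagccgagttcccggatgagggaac

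The replication-dependent histones were among the most abundant transcripts per length. On the deposited FPKM scale (reads per kilobase of gene model, scaled to the library), the median over the 37 tested replication-dependent members was 226, against 63.1 for the 7 tested replacement members and 12.8 for all 12393 genes tested. A mean level over 100 FPKM was found for 26 replication-dependent and 3 replacement members. Among the 17425 genes with a count, 8 replication-dependent members were in the 100 highest and 13 in the 200 highest, and no replacement member was in either. The mean levels of the 37 tested replication-dependent members ranged from 0.915 FPKM for Hist1h2aa, an H2A gene known from the testis, to 1336 FPKM for Hist1h3f.

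**Figure D1:**
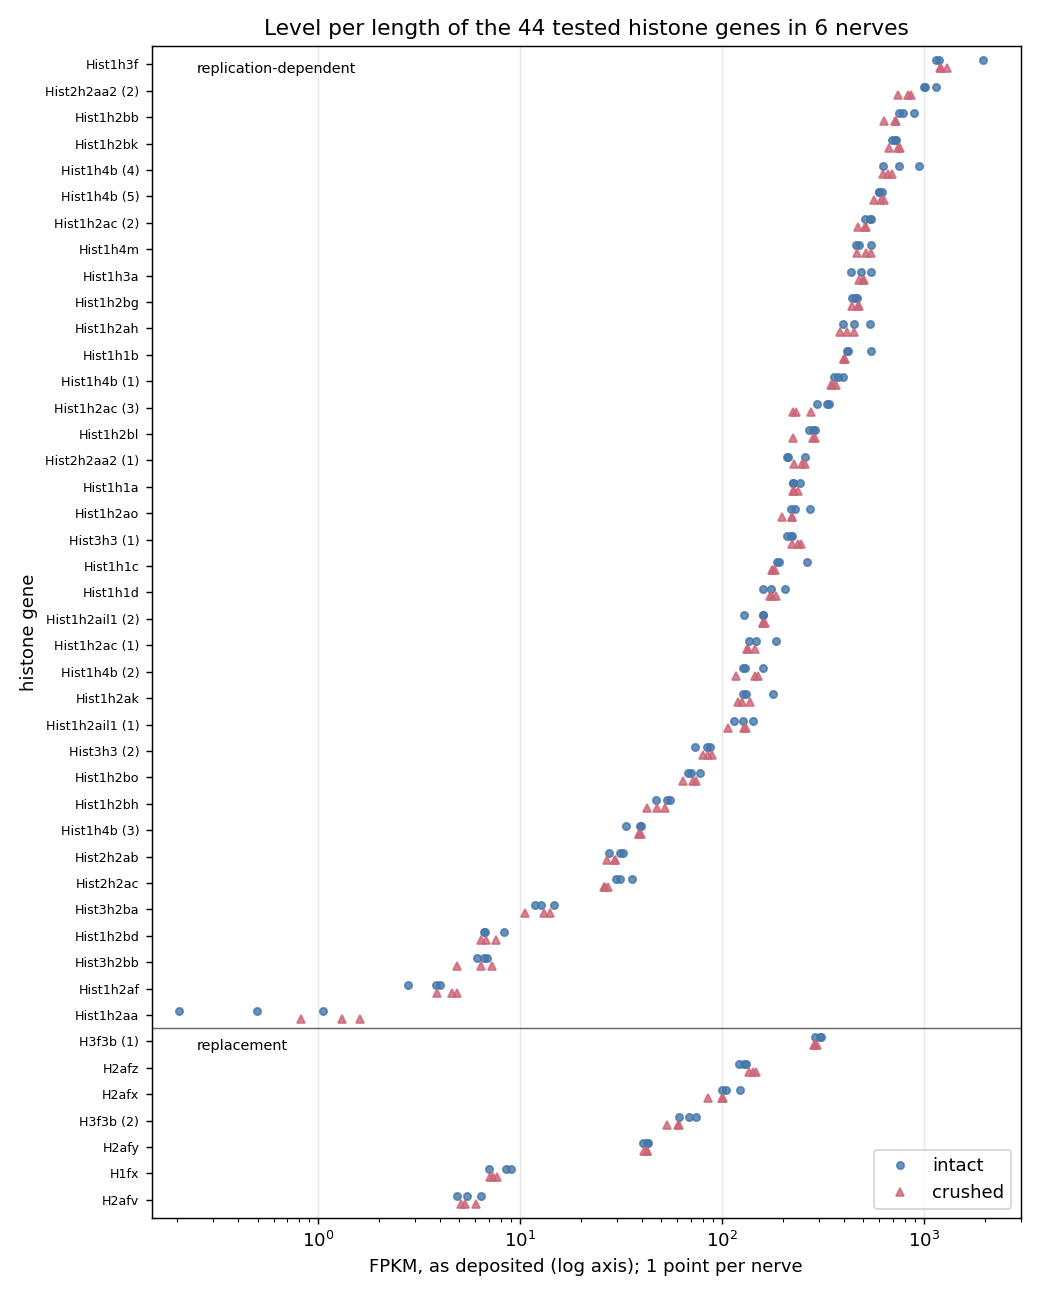
FPKM of the 44 tested histone genes on a log axis, with 1 point per nerve (circles, 3 intact; triangles, 3 crushed); a number in brackets tells apart rows that share a name, in the order of chromosome 10, 13, 17, 2 and 4 and then of position. Mean levels run from 0.915 to 1336 FPKM between genes, while the nerves of a gene mostly overlap.

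Hist1h3f (ENSRNOG00000028975, chromosome 2, 198380426-198380836), an H3 gene, had the highest level. Its name belongs to the Hist1 series, whose cluster lies on chromosome 17, but the row lies on chromosome 2, and Hist1h4b rows lie on chromosomes 2 and 4, so such rows are identified by position. Hist1h3f had 1967, 1151 and 1187 FPKM in the intact nerves 1, 2 and 3, and 1197, 1209 and 1304 FPKM in the crushed nerves 1, 2 and 3. Intact nerve 1 alone stood above the rest, and in FPKM the other intact nerves lay below all crushed nerves. In CPM, intact nerve 3 (489.3) lay just above crushed nerve 1 (488.5). Next was the Hist2h2aa2 row at chromosome 2, 198388809-198389201, an H2A gene, with a mean of 931 FPKM. The H2B genes Hist1h2bb and Hist1h2bk had means of 751 and 717 FPKM. The H4 rows named Hist1h4b on chromosome 2 (198411955-198412350) and on chromosome 4 (170763605-170763916) had means of 716 and 605 FPKM. Of the replacement genes, H3f3b on chromosome 10 (104573664-104575890) had the highest level, with 301 ± 10.1 FPKM in intact nerves and 289 ± 5.50 FPKM in crushed nerves (SD, n = 3 each). H2afz followed with a mean of 134 FPKM, H2afx with 102, the H3f3b row on chromosome 13 with 63.1, H2afy with 42.0 and the linker variant H1fx with 7.78. In this order, H2afz (126.9 ± 5.26 FPKM in intact nerves) and H2afx (109 ± 12.3 FPKM) overlapped among the intact nerves but not among the crushed nerves (142 ± 6.36 and 95.6 ± 8.79 FPKM). H1fx (8.19 ± 1.05 FPKM in intact nerves) lay above H2afv, a relative of H2afz (5.59 ± 0.780 FPKM), in every nerve.

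Members at or near 0 included genes known from the germ line. H2afb3, H2afj and the Hist1h4b row at chromosome 4, 170144951-170145262, had 0 counts in every nerve, which allows a level of up to 0.121 CPM. That limit covers counting error only, since how reads matching several near-identical copies were assigned is not given. Hist1h1t, the testis H1, had between 0 and 4 counts per nerve, Hist1h2ba, the testis H2B, between 0 and 8, and H2afy2, the second macroH2A gene, between 0 and 2. These 6 rows were not tested.

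Summed over the 40 rows, replication-dependent histones took 0.572%, 0.487% and 0.475% of the counts in the intact nerves 1, 2 and 3, and 0.482%, 0.483% and 0.452% in the crushed nerves 1, 2 and 3. The crushed nerves lay inside or just below the range of the intact nerves, and intact nerve 1 was the highest. The means were 0.511% ± 0.0528 in intact and 0.472% ± 0.0174 in crushed nerves (SD, n = 3 each), a difference of -0.0391 percentage points that is no larger than the spread between intact nerves, and it was -0.00877 without intact nerve 1. The replacement histones took 0.0833% ± 0.00107 of the counts in intact and 0.0796% ± 0.00239 in crushed nerves. Summed per length, replication-dependent exceeded replacement histones 17.5 ± 1.56 times in intact and 16.7 ± 0.213 times in crushed nerves. These sums run over 40 and 10 rows, and from medians over the tested members the ratio was 3.47 in FPKM and 1.85 in CPM without length, on average over the 6 nerves.

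The level of the replication-dependent histones bears on whether RNA without a poly(A) tail was counted. In each nerve the summed FPKM of replication-dependent histones was set beside that of 20 S phase genes whose mRNAs carry poly(A), such as the replication clamp Pcna and the Mcm helicase genes. This ratio was 9.22, 7.55 and 7.40 in the intact nerves 1, 2 and 3, and 7.39, 7.36 and 6.96 in the crushed nerves 1, 2 and 3. It compares sums over 40 and 20 rows, and from medians over the members it was 2.45 on average over the 6 nerves. The median level was 75.5 FPKM over the 20 S phase genes, with 137 FPKM for Pcna, and 91.1 FPKM over 10 mitotic genes, with 153 FPKM for Mki67. Structural RNAs that cells make without poly(A) were counted too. RNase MRP RNA, part of an RNA-processing enzyme, had 43535, 69506 and 56591 counts (intact) against 67096, 64780 and 46493 counts (crushed), with a mean of 8171 FPKM. The 7SK RNA row with the most counts, whose product restrains transcription elongation, had a mean of 1409 FPKM and RNase P RNA 541 FPKM. Of the 2000 rows bearing the names of such RNAs, 513 had a count, 79 were tested, and their median was 4.92 FPKM. The tables thus hold reads on RNAs of both kinds in every nerve, and the poly(A) state of the histone reads themselves was not measured. Slbp (66.5 FPKM) and Lsm11 (4.34 FPKM), which act on histone mRNA, and Npat (17.2 FPKM), which acts on transcription of the clusters, were counted in every nerve.

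**Figure D2:**
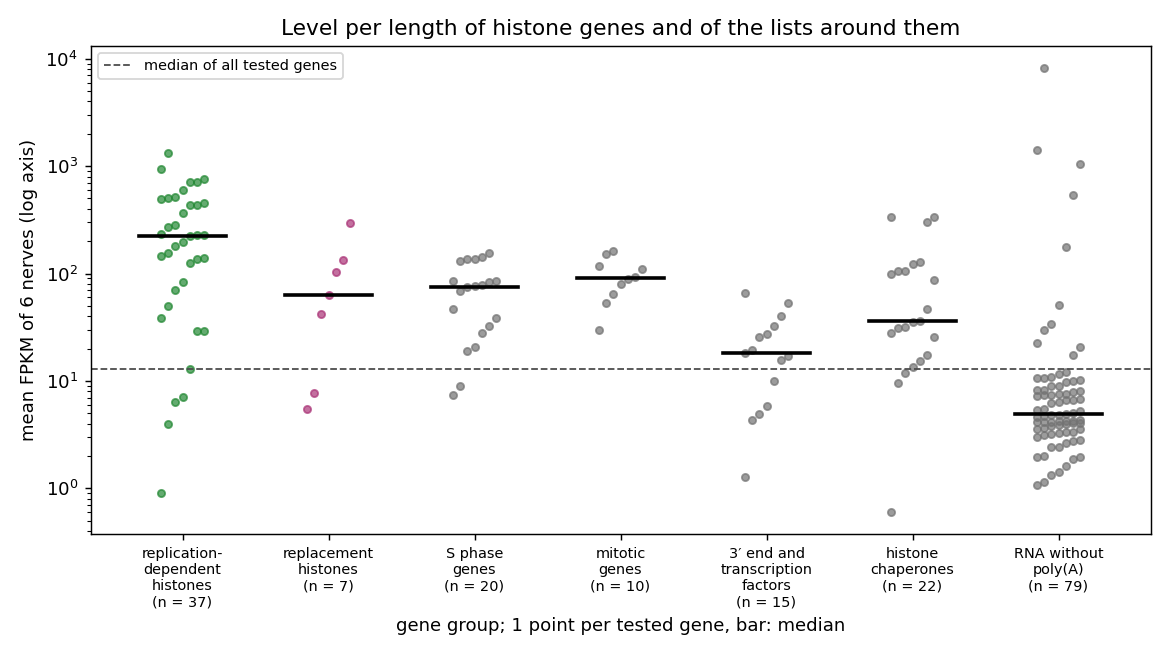
Mean FPKM of 6 nerves on a log axis for each tested gene (points) and the median of each group (bars): replication-dependent histones, replacement histones and the 5 lists around them. The bar of the replication-dependent histones stands at 226 FPKM, above the bars of the other groups, and the points of the RNAs without poly(A) reach from 1.08 to 8171 FPKM.

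Histone RNA differed between crushed and intact nerves in 2 H2A genes, both lower in crushed nerves, and in no other member by the test used. At the study threshold (absolute log2 fold change above 1 and p under 0.001, taken here as unadjusted because the methods do not say) no member was called by edgeR, DESeq2 or limma, where 0.282% of all genes were (35 of 12393). At a Benjamini-Hochberg adjusted p under 0.05 with any fold change (edgeR quasi-likelihood test), 2 of the 44 members were lower in crushed nerves and none was higher, where 1.65% of all genes were lower and 1.47% higher. Both were replication-dependent H2A genes, and none of the 7 replacement genes was called by edgeR, DESeq2 or limma. At an unadjusted p under 0.05, 11 members differed, 10 of them lower (8 replication-dependent and 2 replacement) and H2afz higher, where 16.2% of all genes differed in either direction. The log2 fold change was below 0 in 33 of the 44 members (50.6% of all genes), and its median was -0.09 over the replication-dependent members, -0.07 over the replacement members and -0.0017 over all genes. In bulk tissue, fewer cells of a type and less RNA per cell cannot be told apart.

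**Figure D3:**
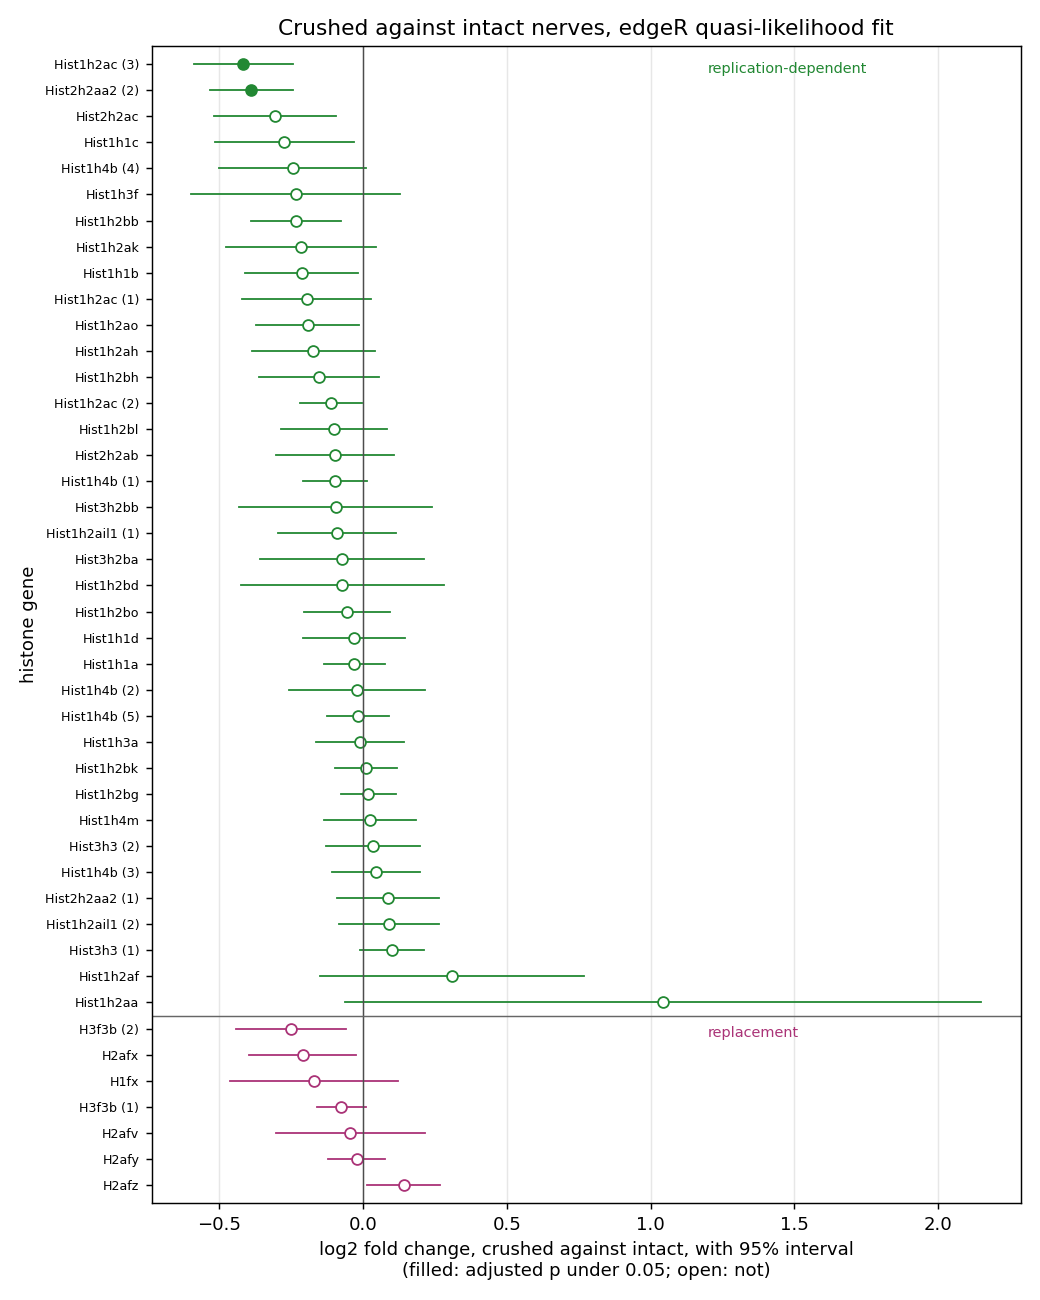
Log2 fold change of crushed against intact nerves with its 95% interval for each of the 44 tested histone genes (filled, adjusted p under 0.05 in edgeR's test; open, not); brackets number rows of the same name as in the plot of levels. The filled points, Hist1h2ac (3) at -0.42 and Hist2h2aa2 (2) at -0.39, are the lowest, and most other intervals include 0.

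Hist1h2ac at chromosome 17, 44794130-44794522 (ENSRNOG00000059748), an H2A gene whose model has no intron, fell in crushed nerves. Counts were 3316, 3535 and 2880 on the intact side and 2934, 2463 and 2198 after crush, in the order of nerves 1, 2 and 3 here and below. Scaled to library size, all 3 crushed nerves lay below all 3 intact nerves, although the raw counts overlapped. The log2 fold change was -0.42 (SE 0.0782) with an adjusted p of 0.0167. Hist2h2aa2 at chromosome 2, 198388809-198389201 (ENSRNOG00000052555), also an H2A gene, fell as well. Counts were 11465, 10393 and 9880 on the intact side and 9185, 8845 and 7283 after crush. These groups did not overlap, even in raw counts. The log2 fold change was -0.39 (SE 0.0655) with an adjusted p of 0.0092. Without intact nerve 2, crushed nerve 2 or crushed nerve 3, 1 member was called in place of 2, since the adjusted p of Hist1h2ac was then 0.0791, 0.0808 and 0.0784. With limma on log2(FPKM + 0.1) neither was called (adjusted p 0.0683 for Hist1h2ac and 0.0749 for Hist2h2aa2), and over all alternatives the adjusted p of Hist1h2ac lay between 1.54e-05 and 0.0808 and that of Hist2h2aa2 between 1.59e-06 and 0.0749.

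Other rows of the same names were not called. The second Hist2h2aa2 row, at chromosome 2, 198381798-198382190, had 2584, 2213 and 2039 counts (intact) against 2732, 2629 and 2213 counts (crushed), with a log2 fold change of 0.09 (SE 0.0804). The Hist1h2ac rows at 44520537 and 44758460 on chromosome 17 had log2 fold changes of -0.20 (SE 0.101) and -0.11 (SE 0.0480), with adjusted p of 0.379 and 0.286. These 3 rows were chosen after their values were seen, and the differences between rows were not tested. How reads that match several near-identical copies were assigned is not given in the sources used here, so the value of a single copy is uncertain. Summing the class avoids the division among the 14 H2A rows of the rule. It does not cover reads on H2A rows outside the rule or reads left uncounted. The counts of the 14 H2A rows, summed per nerve and put through the same fit, gave a log2 fold change of -0.21 (95% interval -0.36 to -0.06) with an adjusted p of 0.136.

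The remaining H2A genes included the lowest and the highest log2 fold change among the tested members not called. Hist2h2ac, in the same cluster on chromosome 2 as Hist2h2aa2, had 346, 298 and 294 counts (intact) against 268, 277 and 246 counts (crushed), with a log2 fold change of -0.30 (SE 0.0959) and an adjusted p of 0.137. Its groups did not overlap. Hist1h2aa had 5, 11 and 2 counts (intact) against 14, 17 and 8 counts (crushed), with a log2 fold change of 1.04 (SE 0.5002), the largest of the members, and an adjusted p of 0.342. Hist1h2af, also low, had between 27 and 52 counts per nerve and a log2 fold change of 0.31 (SE 0.208). Both lie in counts where the interval is wide, and the groups overlapped.

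The other classes had no call. Among the H1 genes, Hist1h1b had 9345, 7469 and 6907 counts (intact) against 7309, 7238 and 6762 counts (crushed), with a log2 fold change of -0.21 (SE 0.0891) and an adjusted p of 0.272. Without intact nerve 1 this fold change was -0.06. The sum of the 5 H1 rows had a log2 fold change of -0.15 (95% interval -0.32 to 0.03). Among the H2B genes, Hist1h2bb had 8659, 7560 and 7418 counts (intact) against 7437, 7514 and 6031 counts (crushed), with a log2 fold change of -0.23 (SE 0.0705) and an adjusted p of 0.121. Without intact nerve 1 this fold change was -0.15. DESeq2 gave Hist1h2bb an adjusted p of 0.0336, and over all alternatives it lay between 0.0336 and 0.344. Hist1h2bk and Hist1h2bg, the H2B gene with the most counts, had log2 fold changes of 0.01 (SE 0.0490) and 0.02 (SE 0.0436), and the sum of the 10 H2B rows -0.06 (95% interval -0.17 to 0.05).

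Among the H3 genes, Hist1h3f had 20659, 12556 and 12125 counts (intact) against 13347, 13436 and 13347 counts (crushed). Its log2 fold change of -0.23 (SE 0.164) turned to 0.07 without intact nerve 1. The Hist3h3 row at chromosome 17, 44763598-44764008, a name that RefSeq (GRCr8) lists on chromosome 10, had a log2 fold change of 0.10 (SE 0.0511) and an adjusted p of 0.366. For the H4 rows named Hist1h4b, the row on chromosome 2 had 9552, 6561 and 7368 counts (intact) against 7079, 7418 and 6196 counts (crushed), with a log2 fold change of -0.24 (SE 0.116) and an adjusted p of 0.336. That fold change was -0.07 without intact nerve 1 and -0.37 without intact nerve 2. Its neighbour in level on chromosome 4 had a log2 fold change of -0.02 (SE 0.0485), which was 0.01 without intact nerve 1 and 0.03 without crushed nerve 3. The class sums gave -0.13 (95% interval -0.40 to 0.14) for the 4 H3 rows and -0.09 (95% interval -0.22 to 0.04) for the 7 H4 rows.

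**Figure D4:**
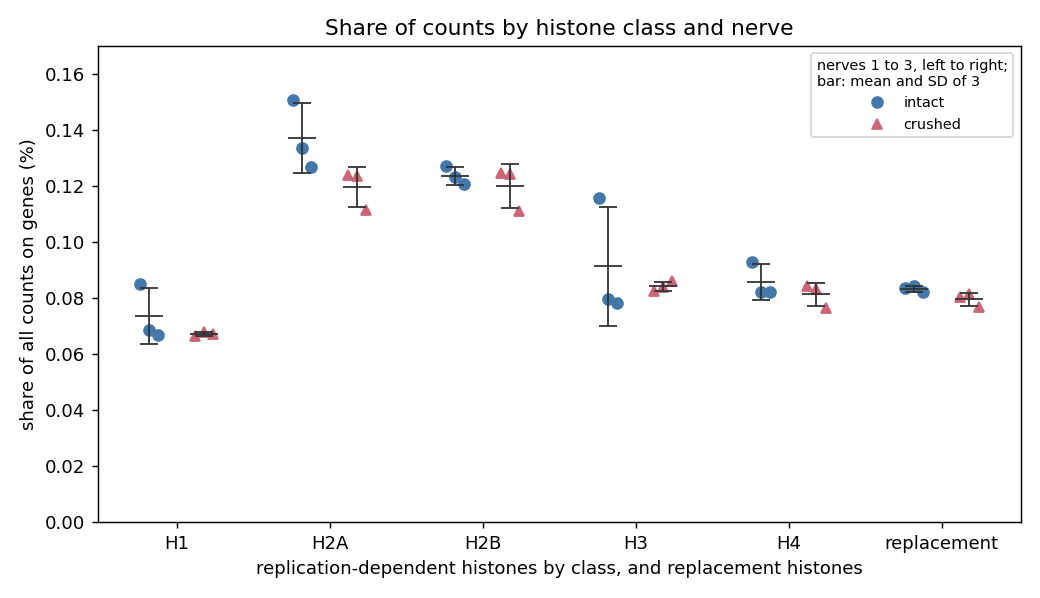
Share of all counts on genes, in percent, for the replication-dependent histones of each class and for the replacement histones; each point is 1 nerve, and the bars give the mean and SD of 3 nerves. The crushed nerves lie below the intact nerves without overlap for H2A (0.111% to 0.124% against 0.127% to 0.151%). The same holds for the replacement histones (0.0769% to 0.0814% against 0.0821% to 0.0842%), and in CPM for 12.2% of all genes tested. The H2A sum was not called (adjusted p 0.136, edgeR). Intact nerve 1 is the highest nerve for H1, H2A, H2B, H3 and H4.

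A nerve of each group moved with these values. Intact nerve 1 had the highest CPM for 24 of the 44 tested members (26.8% of all genes tested), and crushed nerve 3 had the lowest for 26 (17.6% of all genes tested). Without intact nerve 1, the median log2 fold change of the replication-dependent members was -0.03 and 20 of 37 were below 0, in place of 27. Without crushed nerve 3 the median was -0.01, also with 20 of 37 below 0. The median of the 14 H2A members was -0.14 with all nerves, -0.04 without intact nerve 1 and -0.10 without crushed nerve 3. The 7SK row with the most counts was likewise highest in intact nerve 1, with 17399, 12193 and 11321 counts (intact) against 11034, 11477 and 9263 counts (crushed). RNase MRP RNA, also made without poly(A), went the other way, and its counts, given above, were lowest in intact nerve 1. Col1a1, Col3a1 and Erbb3, given above, were lower in crushed nerves, as were the called H2A genes. Other tested markers of the same lists went the other way. Their log2 fold changes reached 0.19 among fibroblast genes and 0.21 among Schwann cell and myelin genes. The part of these markers in the result was not tested.

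By position, the 6 rows on chromosome 2 (198359754-198412350) had log2 fold changes with a median of -0.24, of which 5 lay below 0. Without intact nerve 1 the median was -0.05 and 4 lay below 0, and without intact nerve 2 it was -0.36. The share of the counts on the chromosome 2 rows was 0.176% in intact nerve 1, between 0.122% and 0.129% in the other intact nerves and between 0.119% and 0.122% in crushed nerves. The cluster on chromosome 17 fell into 2 blocks. The block from 43422454 to 43815183 held 15 rows, 13 of them tested, with a median of -0.03 (leaving out intact nerve 1, 0.02; intact nerve 3, -0.08; crushed nerve 2, -0.06; crushed nerve 3, -0.0017) and no call. The block from 44519860 to 44841382 held 15 rows, all tested, with a median of -0.10 (-0.03 without intact nerve 1, -0.02 without crushed nerve 3) and Hist1h2ac as its only call. Groups that did not overlap in CPM, with crushed below intact, were found for 6 replication-dependent members and 1 replacement member (12.2% of all genes), and with crushed above intact for H2afz (10.8% of all genes).

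No replacement histone was called, and 6 of the 7 tested had a log2 fold change below 0. H2afz had 1258, 1340 and 1156 counts (intact) against 1540, 1477 and 1292 counts (crushed), and after scaling no crushed nerve was as low as any intact nerve. Its log2 fold change was 0.14 (SE 0.0569) with an adjusted p of 0.252. The H3f3b row on chromosome 13 (99091763-99101208) had 782, 670 and 701 counts (intact) against 592, 677 and 617 counts (crushed), with a log2 fold change of -0.25 (SE 0.0866) and an adjusted p of 0.181. RefSeq lists H3f3a on chromosome 13 and H3f3b on chromosome 10, so the name of this row differs from the RefSeq name for that chromosome, and the row is given here by its position. The H3f3b row on chromosome 10 had between 11697 and 13546 counts per nerve and a log2 fold change of -0.07 (SE 0.0388). H2afx had 4185, 3687 and 3303 counts (intact) against 3649, 3602 and 2830 counts (crushed), with a log2 fold change of -0.21 (SE 0.0842) and an adjusted p of 0.253. That fold change was -0.11 without intact nerve 1 and -0.13 without crushed nerve 3. H1fx (-0.17, SE 0.132), H2afv (-0.04, SE 0.117) and H2afy (-0.02, SE 0.0449) had log2 fold changes nearer to 0 or with wider error, and their groups overlapped in CPM.

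Genes that act on histones and genes of S phase and mitosis were not called by edgeR or by limma, and among the chaperones DESeq2 called Rbbp4 (higher), which was chosen after its value was seen. Of 15 factors of histone mRNA 3′ end formation and histone transcription, 0 were called in either direction, their median log2 fold change was 0.0071, and none had an unadjusted p under 0.05. Slbp had a log2 fold change of -0.0036 (SE 0.0527), Npat -0.02 (SE 0.0447) and Lsm11 0.21 (SE 0.138). Of 22 histone chaperones and deposition factors, 0 were called and 3 had an unadjusted p under 0.05, with a median of 0.0043. Of the 20 S phase genes, 0 were called and 1 had an unadjusted p under 0.05, with a median of 0.01, and Pcna had a log2 fold change of 0.02 (SE 0.0530). Of the 10 mitotic genes, 0 were called and 1 had an unadjusted p under 0.05, with a median of -0.03, and Mki67 had -0.11 (SE 0.0575). The summed level of the S phase genes was between 3985 and 4082 CPM in intact nerves and between 4038 and 4087 CPM in crushed nerves.

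Among the 79 tested rows of RNA made without poly(A), 5 rose in crushed nerves (1.47% of all genes were higher), 0 fell, and the median log2 fold change was 0.09. The lists held 2 calls in place of these 5 without crushed nerve 1, and 3 without intact nerve 2, crushed nerve 2 or crushed nerve 3. The rows that rose were low copies of the signal recognition particle RNA, part of the machinery that guides secreted proteins, and of 7SK. A signal recognition particle row (Metazoa_SRP, ENSRNOG00000053902) had 37, 32 and 26 counts (intact) against 119, 99 and 74 counts (crushed), with a log2 fold change of 1.56 (SE 0.204) and an adjusted p of 0.0017. The other 2 such rows had log2 fold changes of 1.25 and 0.67. The 7SK rows had log2 fold changes of 1.24 (ENSRNOG00000061829, between 20 and 65 counts per nerve) and 0.86 (ENSRNOG00000058031). The abundant rows of the list had no call, with a log2 fold change of 0.01 (SE 0.137) for RNase MRP RNA and -0.43 (SE 0.131, adjusted p 0.126) for the 7SK row with the most counts.

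What a row measures is limited by its gene model. For 33 of the 39 replication-dependent rows with a count, the length behind the FPKM value is a multiple of 3, as a coding length without the mRNA ends would be, and 36 of the 39 span a single unbroken stretch. Some models are longer than others of their class, such as the Hist1h4b row at chromosome 17, 44522140-44526583 (1296 bases, against 312 for 4 H4 rows with counts and 396 for the row on chromosome 2) and Hist3h2ba (630 bases, against 381 for 4 H2B rows), so their values per length may not compare directly. A name is shared by 15 of the replication-dependent rows and 2 of the replacement rows, and 7 members overlap another row of the table. Hist1h2bo spans 37373 bases that hold other histone rows, including Hist1h1b and a Hist1h2ac row. The length behind its FPKM value is 1223 bases, so the overlap may be of spans only. Whether reads are shared between these rows was not tested.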

How the data were processed

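RNA from 3 intact and 3 crushed rat sciatic nerves was sequenced. For each nerve the authors deposited the raw count on each Ensembl gene and an FPKM value, as 12 columns of 1 table. The submitters' processing notes name HISAT2, StringTie 1.3.0 and the build Rnor_6.0, without giving their roles, and the counting program and annotation release are not given in the sources used here. Coordinates of rows are those of the deposited table. Columns of other samples numbered 0.

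Crushed were set against intact nerves on the counts with edgeR 4.0.16 in R 4.3.3 (filterByExpr, TMM factors, quasi-likelihood test, Benjamini-Hochberg adjustment over the 12393 genes tested), without a replicate block, since the methods name none. Only histone rows and the lists around them are given. Levels between genes are compared as deposited FPKM. Shares of counts, genes named for the most counts and the ratio of medians in CPM are not corrected for length. Pairs of nerves within a group differed by more than sampling noise (3.27 to 11.8 as chi-square over its degrees of freedom), and every nerve counts as 1 sample. The calculation was tested on simulated data. Alternatives were DESeq2 1.42.0, limma 3.58.1 with a trend on log2(FPKM + 0.1), no filter, upper-quartile scaling, the replicate block, counts summed per class, and each nerve left out in turn. Adding rows by description was chosen after seeing the data. Promoter sequences are from RefSeq (GRCr8), a build that was not mixed with the coordinates of the table.

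Genes were named by rule: every member called; the 6 members of each kind with the highest mean FPKM; the 3 tested members of each kind with the largest positive and the 3 with the largest negative fold changes; the member of each class with the most counts; and, of the lists, every gene called and Slbp, Npat, Lsm11, Mki67, Pcna and 7SK. Members, lists and tests were chosen with earlier results of these data known. Values of some genes of the lists are not reported here.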

Additional observations from a re-analysis of the deposited data

How the results depend on the processing

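The count of 0 members at the study threshold and of 0 replacement histones at an adjusted p under 0.05 was the same under every alternative run. The count of 2 members at an adjusted p under 0.05, both replication-dependent, was 2 with the replicate block, without the filter, with upper-quartile scaling and with rows added by description, 3 with DESeq2, 0 with limma on log2(FPKM + 0.1), 0 with counts summed per class, and between 1 and 2 with a nerve left out (1 without intact nerve 2, crushed nerve 2 or crushed nerve 3). Whether equal numbers in the titles mark nerves of the same rat is not known from the labels. For nerves sharing a number, the deviations correlated between -0.00965 and 0.0709. Such values from 3 nerves per group cannot decide whether these nerves were pairs. The replicate block changed no call of a named member. The 5 calls in the lists around the histones were between 2 and 4 with a nerve left out (2 without crushed nerve 1, 3 without intact nerve 2, crushed nerve 2 or crushed nerve 3). The ratio of replication-dependent to S phase genes per length was 7.65 over the 6 nerves from sums and 2.45 from medians, and that of replication-dependent to replacement histones, from medians, was 3.47 with FPKM and 1.85 with CPM without length. The difference in summed share kept its sign in every alternative, between -0.0573 and -0.00877 percentage points. Over 20 named members and 11 alternatives, 204 of 220 values kept their sign and their side of the threshold. The sign changed in 10, all with a nerve left out, where the log2 fold change ran from -0.0037 to 0.054 for Hist1h2bg, -0.37 to 0.072 for Hist1h3f, -0.053 to 0.029 for Hist1h4b on chromosome 4, -0.13 to 0.073 for H2afv and -0.021 to 0.062 for Hist1h2bk. The cause of these changes was not tested. With 3 nerves per group, changes of low rows such as Hist1h2aa were measured with wide error.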

Other observations

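The table holds 16 further rows whose description names a core or linker histone but whose gene name falls outside the rule. Of these, 9 had a count, 8 were tested and 0 were called by edgeR at an adjusted p under 0.05. The rows, chosen after their values were seen, included genes at the level of the members. LOC102549173, described as similar to an H3 histone (chromosome 17, 43807130-43807540), had 7368, 6450 and 5871 counts (intact) against 4242, 6430 and 5934 counts (crushed), with a mean of 568 FPKM. Crushed nerve 1 was the lowest, and the log2 fold change was -0.30 (SE 0.138) with an adjusted p of 0.324. AABR07027811.3, described as a histone H3 (chromosome 17, 44760056-44760466), had a mean of 322 FPKM and a log2 fold change of -0.05 (SE 0.0555). LOC680097, described as similar to an H4 gene of the germ line, had 727, 1202 and 937 counts (intact) against 1200, 1233 and 801 counts (crushed), with a log2 fold change of 0.11 (SE 0.159). LOC684828, described as similar to an H1 gene, had a mean of 115 FPKM and a log2 fold change of -0.07 (SE 0.0908). H1foo, the linker histone of oocytes, had between 6 and 13 counts per nerve. All 16 rows, H1foo among them, were also added to the replication-dependent rows of the rule. The summed share of counts was then 0.564% ± 0.0570 in intact nerves and 0.520% ± 0.0169 in crushed nerves (SD, n = 3 each).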
